A study of Arabidopsis thaliana with 6 samples.

Results

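The WRKY transcription factors are a plant family of DNA-binding proteins, and the 70 genes described here are all rows, of 32833 in the deposited gene table, whose symbol is WRKY followed by a number. Their transcripts were measured by RNA sequencing of total RNA from whole seedlings of Arabidopsis thaliana, 8 days old, with 3 wild-type (WT) libraries and 3 libraries of the genotype phod2, whose descriptions name LIP1. The series title links a plastidial lipoyl synthase, LIP1p, to the balance of phosphate in the plant, and setting phod2 against WT asks how the WRKY transcripts differed with that genotype. The labels state that the series used high or low phosphate supply but not which supply any library had, and they do not state what change phod2 carries, whether it is a single line, or how many plants made up a sample. WRKY16 and WRKY52, 2 defence members of the family, stand under other symbols in the table and are not among the 70. Nor are 3 rows described as WRKY without such a symbol, which may include those 2.

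The libraries held 17319308 to 22417595 counts, and the count filter left 20169 genes for testing. LIP1P (AT5G08415) had counts of 769, 558 and 773 in WT and 387, 425 and 417 in phod2, with a log2 fold change of -0.74 ± 0.06 (SE, adjusted p = 4.74e-15, edgeR's quasi-likelihood test with Benjamini-Hochberg adjustment). Each fold change is that of phod2 over WT from this test, and levels are in FPKM, the deposited counts per kilobase of exon and per unit of library total. A gene is said to have risen or fallen when its adjusted p was 0.05 or less, and the study's own rule adds a change of at least 2-fold. Nothing in the labels says that the libraries of a genotype came from separately grown batches of plants, so the p-values reflect only how far the libraries spread, which may be technical.

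WRKY proteins bind W-boxes, short elements in the promoters of their target genes, through a domain that opens with a conserved heptapeptide and closes with a zinc finger. Many members are switched on by pathogens or by the defence hormone salicylic acid and either promote or restrain immune responses, often acting on each other's promoters. A smaller set is tied to phosphate: WRKY6 and WRKY42 repress PHO1, the exporter that loads phosphate into the xylem, WRKY42 and WRKY45 activate the phosphate transporter gene PHT1;1, and WRKY75 takes part in the response to phosphate starvation and in root hair development. Other members act in trichome and seed coat formation, flowering, pollen, drought and heat.

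The coding bases of the heptapeptide and its flanks are shown for the 4 phosphate-linked members and for the 4 group III members that were tested, because the results below turn on these sets. They were read from the TAIR10.1 genome at the coding sequence, 5′ to 3′ on the coding strand, with the 21 bases of the heptapeptide in capitals and 12 bases on either side.
WRKY6: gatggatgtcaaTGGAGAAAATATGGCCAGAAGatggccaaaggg
WRKY42: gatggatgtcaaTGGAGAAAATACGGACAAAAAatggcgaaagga
WRKY45: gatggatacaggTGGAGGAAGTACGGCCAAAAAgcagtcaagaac
WRKY75: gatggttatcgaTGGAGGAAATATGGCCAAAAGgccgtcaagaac
WRKY46: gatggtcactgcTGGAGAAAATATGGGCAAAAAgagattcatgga
WRKY53: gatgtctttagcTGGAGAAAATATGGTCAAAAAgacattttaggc
WRKY54: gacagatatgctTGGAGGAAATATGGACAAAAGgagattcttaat
WRKY70: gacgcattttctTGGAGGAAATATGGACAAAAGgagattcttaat
WRKY6 and WRKY42 shared 39 of these 45 bases and 56.2% of their aligned coding bases, and WRKY45 and WRKY75 shared 37 of 45 and 65.3%. Between WRKY6 and WRKY75 the identity was 32 of 45 bases and 21.7% of the coding sequence, so the phosphate-linked set is made of 2 pairs from separate branches, group IIb and group IIc. WRKY54 and WRKY70 were the closest pair of the 4 group III members shown, with 41 of 45 bases and 58.8% of the coding sequence. Counting its variant forms, in which the second or sixth residue may differ, 13 members held the heptapeptide 2 times and 57 held it 1 time, the former all in group I. In its exact conserved form it was held 2 times by 12 members and 1 time by 55, WRKY19 having a variant first copy, and WRKY50, WRKY51 and WRKY59 held only a variant. The zinc finger spacing with a terminal cysteine was found in 13 of 13 group III members and in no member of another group. No WRKY transcript matched that of another WRKY gene at 95% identity or more over 30% or more of its length.

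WRKY transcripts made up 0.0725 to 0.0755% of counts in the WT libraries and 0.0677 to 0.0694% in the phod2 libraries. In WT, 14 members had a mean level of at least 10 FPKM, 34 lay between 1 and 10 FPKM and 22 lay under 1 FPKM. WRKY15, a group IId member, was the most abundant, with 33.7, 31.5 and 31.7 FPKM in WT and 40.4, 41.5 and 43.4 FPKM in phod2. The next levels in WT were those of WRKY39 (24.1 ± 0.194 FPKM, SD, n = 3), WRKY11 (21.3 ± 0.845 FPKM), WRKY65 (20.03 ± 0.603 FPKM) and WRKY3 (19.9 ± 0.595 FPKM). WRKY15 and WRKY39 stood apart from each other and from the rest by more than their SDs, whereas WRKY65 and WRKY3 did not differ beyond theirs. Of the phosphate-linked members, WRKY6 ranked 18 and WRKY75 ranked 28 among the 70 in WT, with WRKY42 and WRKY45 at ranks 42 and 46.

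**Figure D1:**
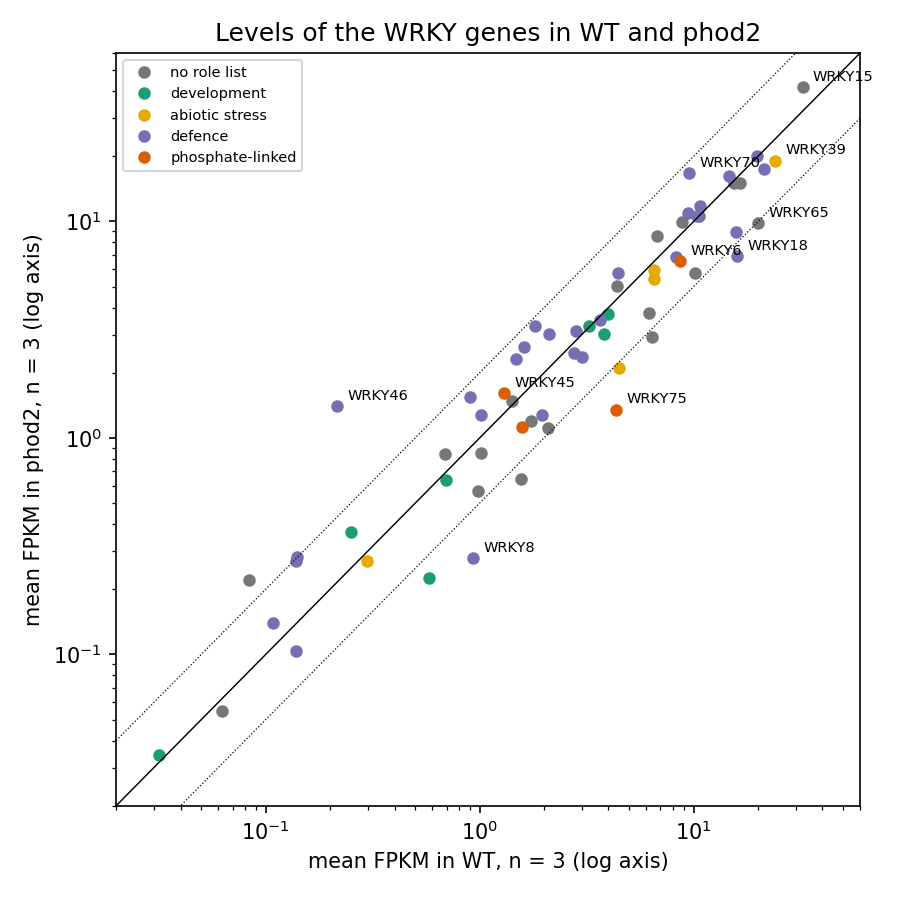
Mean FPKM of WRKY genes in WT (horizontal axis) and phod2 (vertical axis), n = 3 libraries each, both axes logarithmic. Each of the 64 points is a gene coloured by its role list, the solid line marks equal levels and the dotted lines a 2-fold difference; the other 6 genes had a mean of 0 in a group and cannot be drawn on a log axis. WRKY46 lies far above the upper dotted line and WRKY75 and WRKY8 lie below the lower one, while WRKY15 has the highest level in both genotypes.

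Of the 70 members 53 had enough counts to be tested and 34 of these (64.2%) passed the adjusted p, against 45.5% of all tested genes. Of these, 12 members rose and 22 fell, where 20.9% of all tested genes rose and 24.6% fell. At the study's 2-fold rule 1 member was higher, WRKY46, and 7 were lower, WRKY8, WRKY75, WRKY56, WRKY18, WRKY36, WRKY9 and WRKY65, together 15.1% of those tested. Among all tested genes 7.51% passed that rule, 1.79% higher and 5.72% lower. The remaining 26 that passed changed by less than 2-fold. The median log2 fold change was -0.14 for the tested members and 0.01 for all tested genes, and the median absolute change was 0.33 and 0.18. The WT and phod2 libraries did not overlap for 31 of the 53 (58.5%), 13 with phod2 above and 18 with phod2 below, against 54.3% of all tested genes, 30.9% with phod2 above and 23.4% below. WRKY46 passed the count filter only through its phod2 libraries, and WRKY8 and WRKY56 only through their WT libraries, so a difference in these 3 was favoured by the filter.

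**Figure D2:**
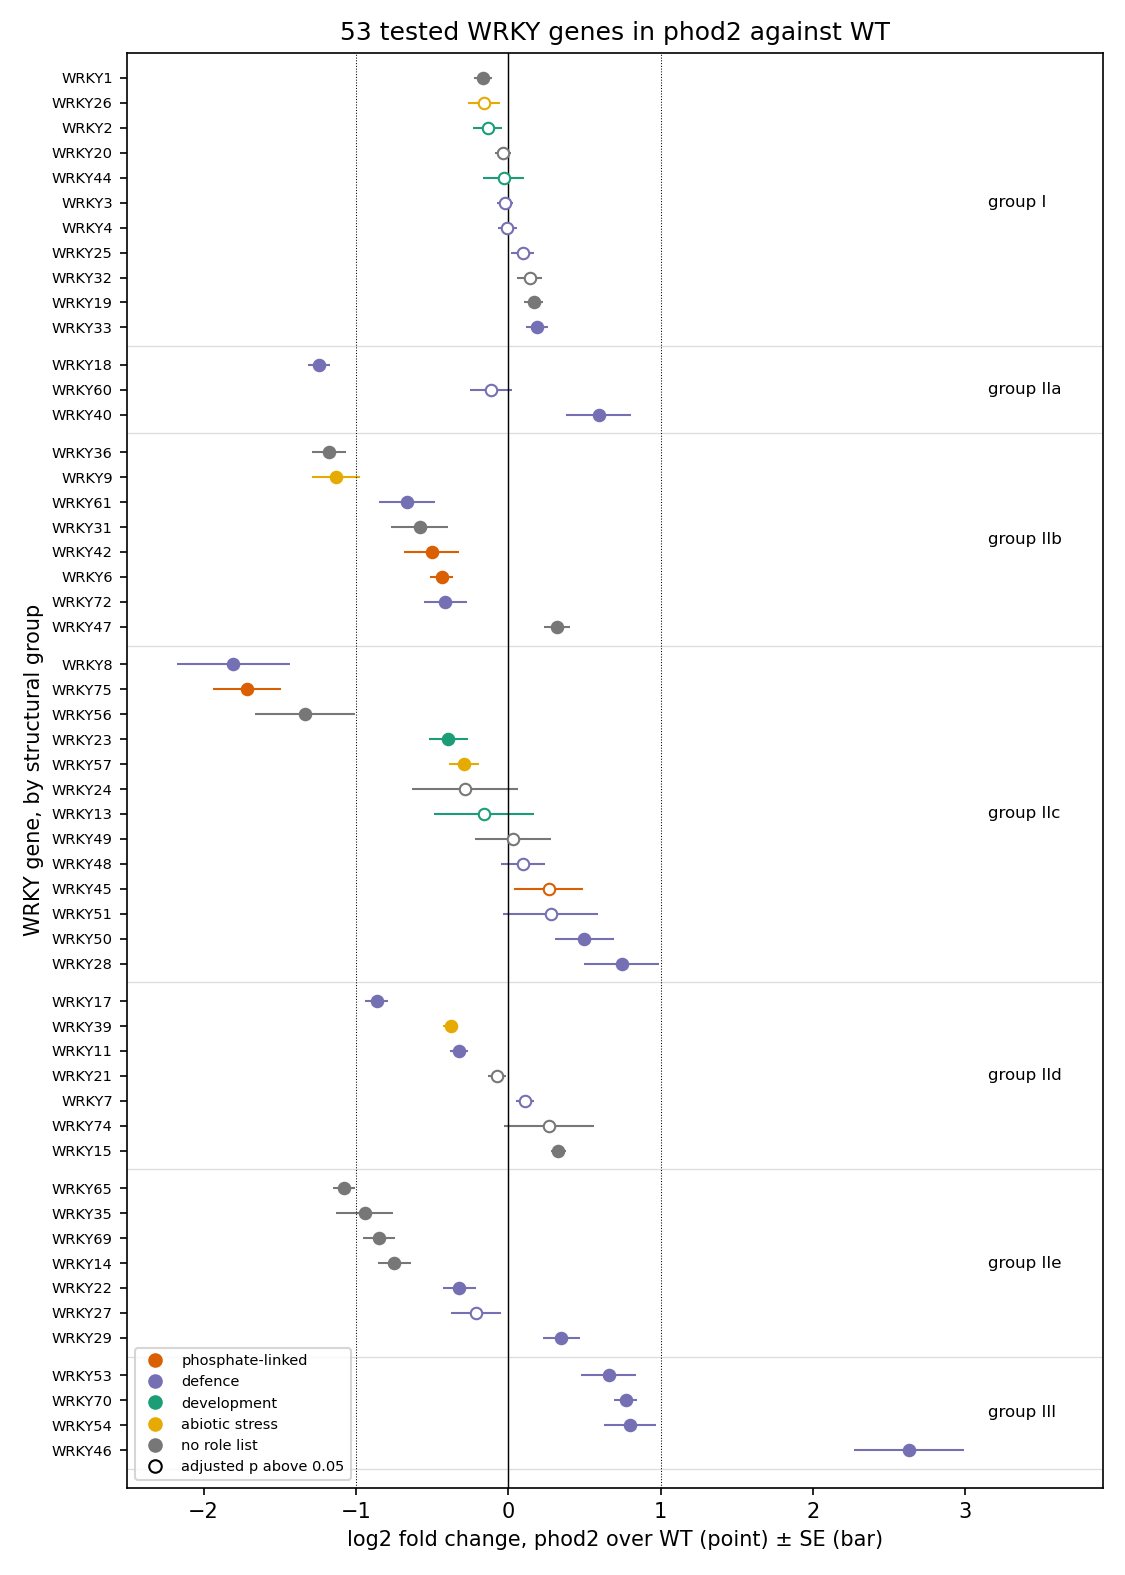
Log2 fold change of phod2 over WT (horizontal axis) for the 53 tested WRKY genes (vertical axis), ordered within their structural groups. Points are estimates, bars are ± SE, filled points passed an adjusted p of 0.05, colours give the role list and dotted lines mark a 2-fold change. All 4 group III genes lie to the right of 0, 7 of 8 group IIb genes and 6 of 7 group IIe genes lie to the left, and group I genes lie near 0.

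Among the phosphate-linked members WRKY75, WRKY6 and WRKY42 fell and WRKY45 did not pass the test. WRKY75 (AT5G13080, chromosome 5, positions 4149738 to 4151201, minus strand, 2 exons) had 4.46, 4.85 and 3.77 FPKM in WT and 1.44, 1.08 and 1.53 FPKM in phod2. Every WT library stood well above every phod2 library. These levels rest on counts of 81, 68 and 66 against 21, 17 and 26, and the log2 fold change was -1.71 ± 0.22 (adjusted p = 2.89e-09), a 3.28-fold lower level. Leaving out any library kept the log2 fold change between -1.82 and -1.58.

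WRKY6 (AT1G62300, chromosome 1, positions 23016569 to 23019494), which besides repressing PHO1 acts in senescence, had 8.89, 8.22 and 8.73 FPKM in WT and 6.18, 6.81 and 6.65 FPKM in phod2. Every phod2 library lay below every WT library, and the gene fell by 0.44 on the log2 scale (SE 0.08, adjusted p = 3.43e-06). WRKY42 (AT4G04450, chromosome 4, positions 2218042 to 2221260), its closest relative in the set, had 1.46, 1.85 and 1.40 FPKM in WT and 0.969, 1.12 and 1.29 FPKM in phod2. These groups did not overlap but lay close together, with a log2 fold change of -0.50 ± 0.18 (adjusted p = 0.0188). The call on WRKY42 was lost without WT replicate 2 (adjusted p = 0.12) and without phod2 replicate 1 (adjusted p = 0.0893), over a range of 0.0131 to 0.12 across all alternatives.

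WRKY45 (AT3G01970, chromosome 3, positions 325952 to 327412), the activator of PHT1;1 and the closest relative of WRKY75 in the set, had 1.41, 1.19 and 1.29 FPKM in WT and 1.39, 1.94 and 1.51 FPKM in phod2. The groups overlapped, and its log2 fold change of 0.27 ± 0.23 did not pass (adjusted p = 0.352). The summed level of the 4 genes was 15.2 to 16.2 FPKM in WT and 9.98 to 10.98 FPKM in phod2. Their median log2 fold change was -0.47. PHO1 and PHT1;1, the transporter genes these factors act on, were both lower: PHO1 had 38.3 ± 0.565 FPKM in WT and 21.9 ± 0.680 FPKM in phod2 (SD, n = 3 each), a log2 fold change of -0.85 ± 0.04 (adjusted p = 5.69e-28). PHT1;1 had 40.7 ± 0.343 and 19.0 ± 0.696 FPKM, a log2 fold change of -1.14 ± 0.05 (adjusted p = 2.24e-30), but it has close relatives among the phosphate transporters with which its reads could be shared.

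**Figure D3:**
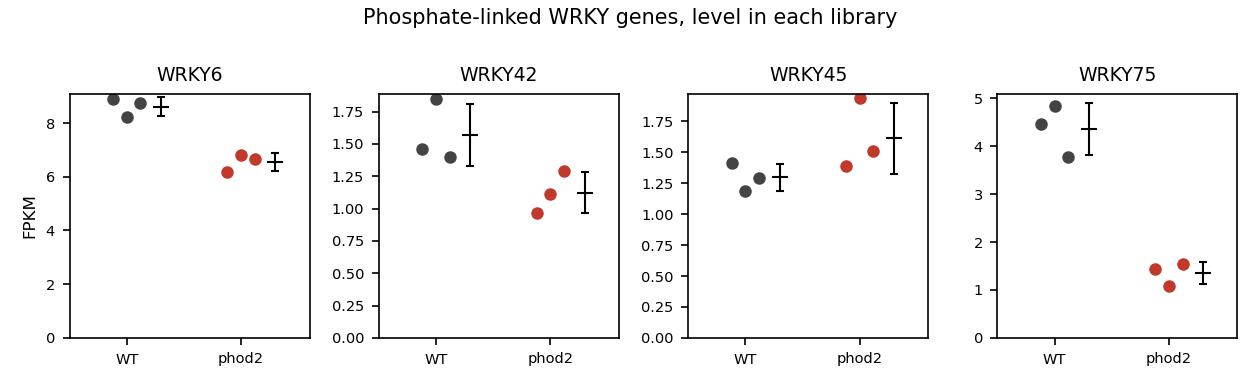
FPKM of the 4 phosphate-linked WRKY genes in each library (vertical axis, starting at 0), with 3 points per genotype and the mean ± SD beside them. The phod2 points of WRKY6, WRKY42 and WRKY75 all lie below the WT points, most widely for WRKY75, and those of WRKY45 overlap the WT points.

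Whole seedlings were sequenced, so fewer cells of a type and less RNA per cell cannot be told apart. All 12 root hair markers were lower in phod2, 8 of them at least 2-fold, with a summed level of 79.1 to 84.3 FPKM in WT and 41.4 to 43.4 FPKM in phod2 and a median log2 fold change of -1.46. Of the 10 root endodermis markers 7 fell, 6 of them at least 2-fold, with a sum of 115 to 125 FPKM against 52.1 to 55.5 FPKM. ESB1 (log2 0.65 ± 0.36, adjusted p = 0.139), SCR (0.10 ± 0.05, adjusted p = 0.125) and SHR (0.07 ± 0.07, adjusted p = 0.446) did not pass. CASP5, among the 6, passed the count filter only through its WT libraries, so its fall was favoured by the filter. None of these root markers was at 0 in all libraries. Among all tested genes 20.9% rose and 24.6% fell, and 5.72% fell at least 2-fold. Of 11 leaf mesophyll markers 6 rose and 3 fell, none by 2-fold, with a sum of 22960 to 23280 FPKM against 24180 to 24470 FPKM. The 5 xylem markers all fell, with log2 fold changes of -1.14 for XCP1, -0.55 for XCP2, -0.50 for CESA4, -0.73 for CESA7 and -0.61 for CESA8. The list of 9 xylem and senescence markers they belong to summed to 114 to 116 FPKM in WT and 74.1 to 78.5 FPKM in phod2. The part of the root and xylem markers' differences in the lower levels of WRKY75, of other members and of PHO1 was not tested.

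The defence list held 29 of the 70 members, and of the 24 tested 9 rose and 7 fell. With DESeq2 in place of edgeR 4 rose and 5 fell. Their median log2 fold change was 0.10, beside -0.47 for the phosphate-linked members, -0.14 for all tested members and 0.01 for all tested genes. The share that passed was 66.7% in the defence list and 75.0% (3 of 4) in the phosphate-linked list, against 45.5% of all tested genes. The difference between both lists was described and not tested. Within the defence list all 4 tested group III members rose, and of the 20 others 5 rose and 7 fell, with a median of -0.01. Of those 4, WRKY46 was tested only because of its phod2 libraries. Gene Ontology terms that hold the words defense response were carried by 20 tested members. Of these, 9 rose and 6 fell, with a median of 0.13.

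The 4 tested members of group III, WRKY46, WRKY53, WRKY54 and WRKY70, all rose in phod2, where 20.9% of all tested genes rose. WRKY46 passed the count filter only through its phod2 libraries, so its place among these 4 depended on its higher phod2 level. WRKY46 (AT2G46400, chromosome 2, positions 19043411 to 19044955, minus strand), induced by salicylic acid and active in basal defence, had 0.264, 0.213 and 0.171 FPKM in WT and 1.07, 1.87 and 1.27 FPKM in phod2. The phod2 libraries were all far above WT and varied among themselves more than the WT libraries did. Only 8, 5 and 5 counts were found in the WT libraries, against 26, 49 and 36 in phod2, and the log2 fold change was 2.63 ± 0.36 (adjusted p = 1.07e-08), a 6.19-fold higher level that rests on few WT reads. It ranged from 2.37 without phod2 replicate 2 to 2.82 without WT replicate 1.

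WRKY70, a regulator that favours salicylic acid over jasmonic acid responses, had 9.89, 8.72 and 9.87 FPKM in WT and 16.1, 16.3 and 17.8 FPKM in phod2. It was the most abundant member of the group, its groups were well apart, and its log2 fold change was 0.77 ± 0.08 (adjusted p = 4.5e-13). WRKY54, its closest relative, which acts with it in senescence and salicylic acid signalling, had 1.84, 1.45 and 2.16 FPKM in WT and 3.57, 2.78 and 3.53 FPKM in phod2. The log2 fold change of 0.80 ± 0.17 (adjusted p = 1.11e-04) was of the same size as that of WRKY70.

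WRKY53, a positive regulator of leaf senescence, had 1.41, 1.602 and 1.83 FPKM in WT and 2.68, 2.49 and 2.71 FPKM in phod2. The groups did not overlap, and the log2 fold change was 0.66 ± 0.18 (adjusted p = 0.0018). The gene overlaps HMGB6 on the opposite strand over 21.1% of its length, and HMGB6 stood at 61.9 and 67.4 FPKM, so reads of the neighbour could enter its counts if strand was not used. The level of group III as a whole was 12.9 to 14.8 FPKM in WT and 24.4 to 26.8 FPKM in phod2, and WRKY70 made up most of it. The other 9 members of the group were too low to be tested. Of the 4 senescence markers found, SAG12, the classic gene of late leaf senescence, was at 0 in all libraries, and NAC092, a senescence regulator, rose with a log2 fold change of 0.84 ± 0.20 (adjusted p = 2.87e-04). NAP (0.10 ± 0.29, adjusted p = 0.817) and SAG113 (0.34 ± 0.15, adjusted p = 0.0552) did not pass.

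**Figure D4:**
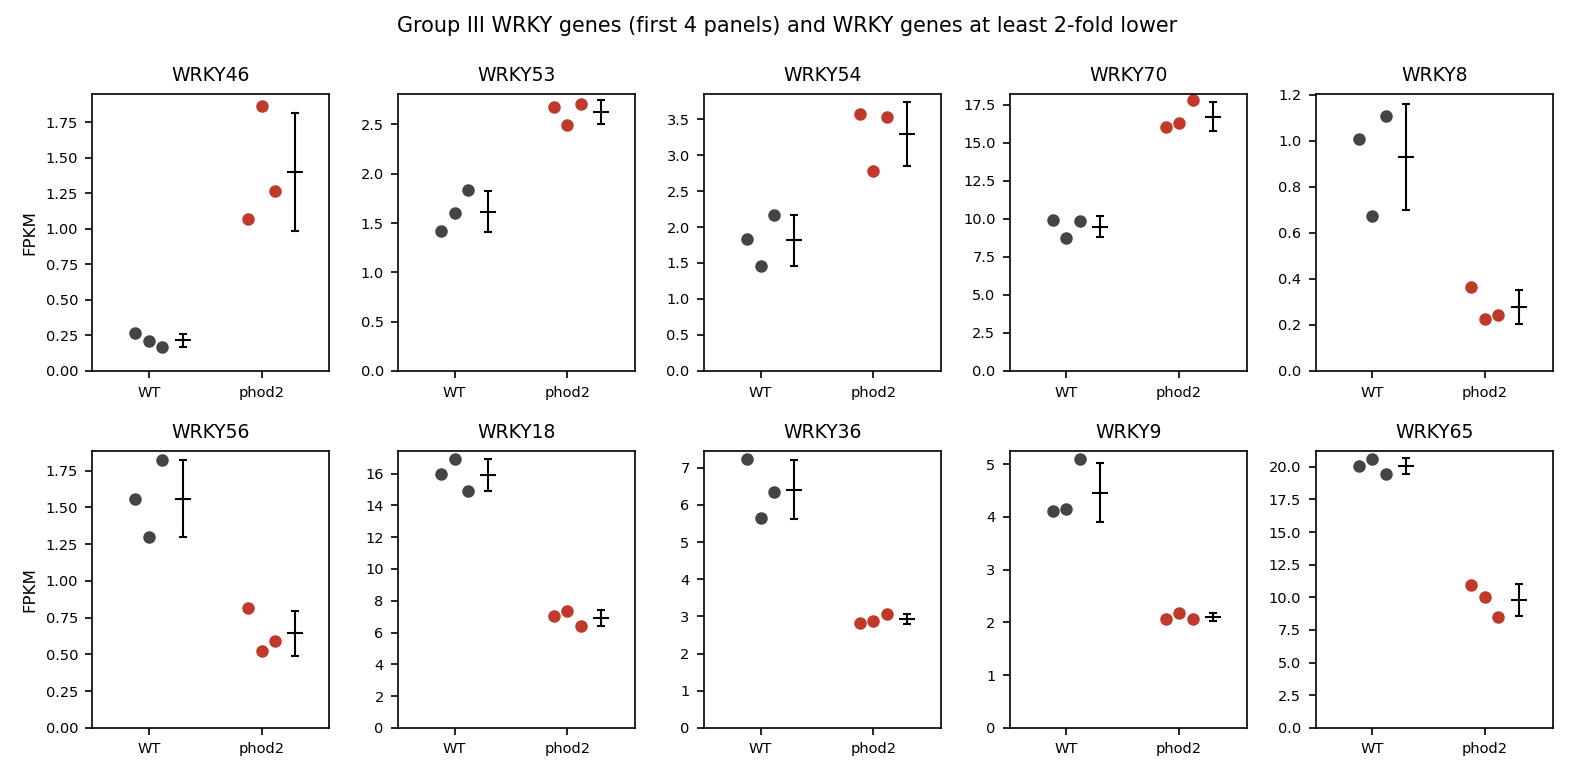
FPKM in each library (vertical axis, starting at 0) of the 4 tested group III WRKY genes, WRKY46, WRKY53, WRKY54 and WRKY70, and of the 6 WRKY genes besides WRKY75 that were at least 2-fold lower, with the mean ± SD beside the 3 points of each genotype. Points of WT and phod2 do not overlap in any panel, with phod2 above WT in the first 4 panels and below WT in the other 6.

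The 3 members of group IIa, WRKY18, WRKY40 and WRKY60, which form complexes with each other and act partly redundantly in defence, went different ways. WRKY18 (AT4G31800, chromosome 4, positions 15382777 to 15385100) had 16.0, 16.9 and 14.9 FPKM in WT and 7.02, 7.33 and 6.38 FPKM in phod2. The groups were far apart, with a log2 fold change of -1.24 ± 0.07 and the lowest adjusted p of any WRKY gene (1.78e-22). WRKY40, a repressor of immune genes that responds within minutes to elicitors and touch, had 1.45, 1.44 and 1.57 FPKM in WT and 2.31, 3.08 and 1.59 FPKM in phod2.

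The phod2 libraries of WRKY40 spanned a wide range, and the lowest of them almost met the highest WT library. Its log2 fold change was 0.59 ± 0.21 (adjusted p = 0.0193), but without phod2 replicate 2 it was 0.33 and no longer passed (adjusted p = 0.287), nor did it without WT replicate 2 (adjusted p = 0.0503). WRKY60 had 3.64 ± 0.334 FPKM in WT and 3.49 ± 0.468 FPKM in phod2 and did not pass (log2 fold change -0.11 ± 0.14, adjusted p = 0.523). WRKY18 and WRKY60 are the closest pair of the group, with 64.5% of aligned coding bases shared, against 53.8% and 54.0% for their pairs with WRKY40.

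All 8 members of group IIb passed the test, where 45.5% of all tested genes did. Of the 8, 7 were lower and WRKY47 higher, with a median log2 fold change of -0.54. WRKY36, a member in no role list, had 7.24, 5.66 and 6.34 FPKM in WT and 2.84, 2.87 and 3.08 FPKM in phod2. Its phod2 libraries lay within a narrow band well below WT, and the log2 fold change was -1.18 ± 0.11 (adjusted p = 1.49e-13). WRKY9, linked to suberin formation and salt tolerance in roots, had 4.12, 4.15 and 5.10 FPKM in WT and 2.06, 2.19 and 2.06 FPKM in phod2. It was lower in all phod2 libraries, with a log2 fold change of -1.13 ± 0.16 (adjusted p = 1.7e-08). WRKY47, in contrast, had 6.71 ± 0.454 FPKM in WT and 8.60 ± 0.159 FPKM in phod2 and rose by 0.32 ± 0.08 (log2, adjusted p = 0.00139). WRKY61, WRKY31 and WRKY72 fell with log2 fold changes of -0.66, -0.58 and -0.42, and the calls on WRKY31 and WRKY72 were lost when a library was left out.

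Of the 7 members of group IIe 5 fell and 1 rose, with a median log2 fold change of -0.75. The share that passed was 85.7%, against 45.5% of all tested genes. WRKY65 had 20.1, 20.6 and 19.4 FPKM in WT and 10.9, 9.99 and 8.47 FPKM in phod2. It was the most abundant of the 7 and fell in every phod2 library, with a log2 fold change of -1.08 ± 0.07 (adjusted p = 2e-19). Without phod2 replicate 3 the change was -0.98, just short of 2-fold. WRKY35, WRKY69 and WRKY14 fell with log2 fold changes of -0.94 ± 0.19, -0.85 ± 0.11 and -0.75 ± 0.11, and none of their WT and phod2 libraries overlapped. WRKY69 overlaps AT3G09145 and AT3G58720 on the opposite strand, over 17.2% and 18.6% of its length. AT3G09145 stood at 2.28 FPKM in WT and 0.81 FPKM in phod2, and AT3G58720 at 8.03 and 10.04 FPKM. Reads of these neighbours could enter the counts of WRKY69 if strand was not used. WRKY22 fell and WRKY29 rose, with log2 fold changes of -0.32 ± 0.11 and 0.35 ± 0.12. These 2 act together downstream of the flagellin receptor, and both calls were lost when a library was left out. WRKY27 did not pass (adjusted p = 0.312).

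Group IIc, the branch of WRKY75 and WRKY45, had 13 of its 18 members tested, of which 2 rose and 5 fell, with a median of -0.16. The share that passed, 53.8%, was near the 45.5% of all tested genes. WRKY8, which acts in resistance to a tobamovirus and in salt stress, had 1.01, 0.672 and 1.11 FPKM in WT and 0.364, 0.225 and 0.243 FPKM in phod2. All its counts were low, 16 to 33 in WT and 6 to 9 in phod2, and the log2 fold change was -1.81 ± 0.37 (adjusted p = 4.7e-05). WRKY56, for which no role list was set, had 1.56, 1.30 and 1.82 FPKM in WT and 0.814, 0.523 and 0.591 FPKM in phod2. It too was low in counts and lower in every phod2 library, with a log2 fold change of -1.33 ± 0.33 (adjusted p = 6.09e-04). WRKY23, an auxin-responsive gene of embryo and root development, fell by 0.39 on the log2 scale (SE 0.13, adjusted p = 0.00939), and without phod2 replicate 3 it did not pass (adjusted p = 0.0924).

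WRKY28 and WRKY50, both tied to salicylic acid, rose by 0.74 ± 0.25 and 0.50 ± 0.20 (log2, adjusted p = 0.0102 and 0.032). Neither call held in all leave-one-out fits: WRKY28 had an adjusted p of 0.158 without phod2 replicate 3 and 0.0561 without WT replicate 1, and WRKY50 reached 0.146 without phod2 replicate 2. WRKY51, the near relative of WRKY50, had 1.01 ± 0.271 and 1.27 ± 0.402 FPKM and did not pass (adjusted p = 0.492).

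In group IId, whose members bind calmodulin, 1 of 7 rose and 3 fell. The share that passed was 57.1%, against 45.5% of all tested genes. WRKY17, a negative regulator of basal resistance to Pseudomonas, had 15.6, 16.4 and 15.6 FPKM in WT and 8.50, 8.67 and 9.63 FPKM in phod2. Its groups were well separated, and it fell by 0.86 on the log2 scale (SE 0.08, adjusted p = 6.43e-15). WRKY11, which shares that role, had 21.3 ± 0.845 FPKM in WT and 17.5 ± 1.05 FPKM in phod2, a smaller log2 fold change of -0.32 ± 0.06 (adjusted p = 3.6e-06). WRKY39, a heat stress regulator, fell by 0.38 on the log2 scale (SE 0.05, adjusted p = 1.16e-09), while WRKY15, the most abundant member, rose by 0.33 ± 0.05 (log2, adjusted p = 1.03e-07).

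Group I, whose members mostly carry a pair of WRKY domains, showed the smallest changes: of 11 tested 2 rose and 1 fell, and all 11 lay between -0.16 and 0.19 on the log2 scale. The share that passed was 27.3%, against 45.5% of all tested genes. WRKY33, the main activator of camalexin synthesis genes after infection by Botrytis, had 10.2, 8.88 and 9.05 FPKM in WT and 10.9, 10.46 and 11.6 FPKM in phod2. The phod2 libraries all lay above WT but near it, with a log2 fold change of 0.19 ± 0.07 (adjusted p = 0.0315), and 4 of the 6 leave-one-out fits did not pass. WRKY1 fell (-0.16 ± 0.06, adjusted p = 0.0186) and WRKY19 rose (0.17 ± 0.06, adjusted p = 0.02), and neither call held in every leave-one-out fit. WRKY44, also called TTG2, the trichome and seed coat regulator, was at 3.24 ± 0.279 FPKM in WT and 3.28 ± 0.576 FPKM in phod2 (adjusted p = 0.873). By role, 1 of 4 tested development members passed, the lower WRKY23, with a list median of -0.15. Of 4 tested abiotic stress members WRKY9, WRKY39 and WRKY57 fell and WRKY26 did not pass, with a list median of -0.34. The WT and phod2 libraries of WRKY57 overlapped, and its call was lost without WT replicate 1 (adjusted p = 0.0835) and without phod2 replicate 1 (adjusted p = 0.131). Of 17 tested members in no role list 3 rose and 8 fell, with a median of -0.17.

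The 250 bases before the annotated start are shown for WRKY75, WRKY36 and WRKY9, the 3 of the 7 members at least 2-fold lower that hold a W-box there, and for WRKY46, the member that rose at least 2-fold. The sequences are TAIR10.1, 5′ to 3′ on the strand of the gene, at chr5:4151202-4151451 (minus), chr1:26279256-26279505 (minus), chr1:25543699-25543948 (plus) and chr2:19044956-19045205 (minus), with W-boxes in capitals.
WRKY75: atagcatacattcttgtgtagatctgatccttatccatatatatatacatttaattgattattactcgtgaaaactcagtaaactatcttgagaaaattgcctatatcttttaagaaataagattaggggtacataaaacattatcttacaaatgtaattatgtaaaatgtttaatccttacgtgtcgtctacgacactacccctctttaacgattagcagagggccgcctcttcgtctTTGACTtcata
WRKY36: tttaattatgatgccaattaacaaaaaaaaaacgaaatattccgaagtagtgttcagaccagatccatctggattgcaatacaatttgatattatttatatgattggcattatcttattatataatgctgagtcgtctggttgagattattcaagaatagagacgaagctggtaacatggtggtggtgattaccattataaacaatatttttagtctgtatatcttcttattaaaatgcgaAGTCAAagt
WRKY9: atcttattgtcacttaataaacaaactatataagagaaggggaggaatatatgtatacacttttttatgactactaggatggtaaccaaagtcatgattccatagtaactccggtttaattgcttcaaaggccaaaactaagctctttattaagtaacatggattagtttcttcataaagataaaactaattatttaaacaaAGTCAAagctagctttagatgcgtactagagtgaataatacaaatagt
WRKY46: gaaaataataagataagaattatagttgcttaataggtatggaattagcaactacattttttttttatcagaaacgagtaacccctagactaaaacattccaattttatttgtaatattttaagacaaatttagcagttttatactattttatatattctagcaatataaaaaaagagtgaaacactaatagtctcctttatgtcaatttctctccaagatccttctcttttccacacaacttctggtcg
The W-box, TTGACC or TTGACT on either strand, stood 11 bases before the start of WRKY75, 9 before that of WRKY36 and 48 before that of WRKY9. The windows of the other 4 at least 2-fold lower, WRKY8, WRKY56, WRKY18 and WRKY65, held no W-box. The WRKY46 window also held no W-box but 1 copy of its core TTGAC, which every W-box contains. In the 250 bases before the start alone, 24 of 70 members (34.29%) held a W-box, against 28.41% of 27442 genes. The core TTGAC was held there by 36 members (51.43%), against 44.93%. Within 250 bases before to 50 after the start, 25 of 70 members (35.71%) held a W-box, against 32.37% of 27442 genes, and 42 members (60%) held TTGAC, against 50.48%. P1BS, GNATATNC on either strand, the element bound by the phosphate starvation regulator PHR1, was found in WRKY71 and WRKY55 (2.86% of members, against 6.25% of all genes). None of the phosphate-linked members held these letters in that window.

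The genes that act with WRKY factors in immunity were described from a list of 26 receptors, kinases and partners. Of the 25 tested, 14 rose and 2 fell, with a median log2 fold change of 0.24, where 20.9% of all tested genes rose and 24.6% fell. The 4 with the lowest adjusted p all rose: RBOHD, the oxidase of the immune oxidative burst, by 0.43 ± 0.04 (log2, adjusted p = 2.52e-12), the flagellin receptor FLS2 by 0.56 ± 0.09 (adjusted p = 1.19e-07), the kinase MKK1 by 0.50 ± 0.08 (adjusted p = 3.74e-07) and PAD4, a lipase-like immune regulator, by 0.48 ± 0.10 (adjusted p = 6.32e-05). MPK11, named after its value was seen and at under 1 FPKM in both genotypes, was the only one in the list to pass 2-fold. It had counts of 0, 6 and 2 in WT and 10, 12 and 13 in phod2. MPK11 passed the count filter only through its phod2 libraries, so a rise was favoured by the filter. SIB2, a partner of WRKY33, was at 0 in all libraries.

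Of 20 defence genes that WRKY factors act on, 16 were tested, 5 rose and 5 fell, with a median log2 fold change of 0.10. The share that passed was 62.5%, against 45.5% of all tested genes. SARD1, a transcription factor gene of salicylic acid synthesis, had 0.651, 0.313 and 0.443 FPKM in WT and 2.11, 1.92 and 2.41 FPKM in phod2, a log2 fold change of 2.11 ± 0.21 (adjusted p = 3.65e-13). It was low in WT and higher in every phod2 library. MYB51, a regulator of indole glucosinolates, rose by 0.68 ± 0.08 (log2, adjusted p = 2.04e-10), and PAD3, the last enzyme of camalexin synthesis and a WRKY33 target, by 0.79 ± 0.12 (log2, adjusted p = 7.36e-08). CYP71A12, an enzyme of indole defence compounds, went the other way, with 2.65 ± 0.444 FPKM in WT, 0.813 ± 0.171 FPKM in phod2 and a log2 fold change of -1.73 ± 0.22 (adjusted p = 8.13e-10). PR1, the usual marker of salicylic acid responses, did not pass (-0.10 ± 0.22, adjusted p = 0.751). PR2 fell (-0.34 ± 0.12, adjusted p = 0.019), and ALD1 fell at least 2-fold (-2.31 ± 0.47, adjusted p = 4.53e-05). ALD1 had counts of 25, 21 and 16 in WT and 1, 2 and 9 in phod2. It passed the count filter only through its WT libraries, so a fall was favoured by the filter. ICS1 (0.52 ± 0.10, adjusted p = 2.94e-05) and CBP60g (0.52 ± 0.15, adjusted p = 0.00284) also rose. ACS2 (-0.88 ± 0.33, adjusted p = 0.0226) and ACS6 (-0.39 ± 0.11, adjusted p = 0.00203) also fell, which completes the 5 higher and 5 lower. PR1, PR2, ALD1, ICS1, CBP60g, ACS2 and ACS6 were named outside the rule by adjusted p.

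Some WRKY genes, WRKY40 among them, respond quickly to touch and wounding, so 24 genes with rapid responses of that kind were read alongside. Of the 20 tested 3 rose and 4 fell, with a median log2 fold change of -0.09. The share that passed was 35.0%, below the 45.5% of all tested genes. XTH22, a touch-induced cell wall enzyme, was at 195 ± 5.80 FPKM in WT and 47.7 ± 1.44 FPKM in phod2 (log2 fold change -2.07 ± 0.03, adjusted p = 4.96e-51). DREB2A, a drought and heat regulator, also fell (-0.97 ± 0.13, adjusted p = 1.91e-09), whereas the zinc finger gene ZAT10 (2.83-fold, from 2.41 ± 0.379 to 6.96 ± 0.694 FPKM, adjusted p = 6.22e-14) and the cold regulator CBF2 (log2 1.55 ± 0.50, adjusted p = 0.00865) rose. CBF2 had counts of only 3, 6 and 4 in WT and 9, 14 and 15 in phod2. It passed the count filter only through its phod2 libraries, so a rise was favoured by the filter. The genes of this list did not move in 1 direction beside the WRKY genes, and the part of handling in the WRKY differences was not tested.

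The 17 members that were not tested had at most 18 counts in any library. WRKY64, WRKY67 and WRKY68 were at 0 in all 6 libraries, and a count of 0 allows up to 3 counts in a library by counting error alone. Group III accounts for 9 of the 17. WRKY63, WRKY64 and WRKY67 lie in a cluster on chromosome 1, and WRKY63, a drought regulator, had counts of 3, 7 and 8 in WT and 7, 1 and 8 in phod2. WRKY55 lies beside WRKY54 on chromosome 2 and on the other strand, with counts of 5, 4 and 1 in WT and 5, 7 and 7 in phod2. WRKY41 had counts of 0 in all WT libraries and 1, 2 and 0 in phod2, and 30.5% of the gene overlaps HMGB13 on the opposite strand.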

How the data were processed

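Total RNA of whole seedlings was sequenced in 3 WT and 3 phod2 libraries, grouped by the genotype labels. The authors deposited whole-number counts per gene, per the file headers, and FPKM, which equal the deposited count divided by exonic size and library total within 0.005. Which aligner, counter and strand setting were used is not given in the sources used here, and the submitters' processing notes name the mouse build mm10, which does not match the Arabidopsis genes. All 70 WRKY genes had the same start and end in TAIR10.1, the RefSeq assembly from which sequences were read.

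Counts were tested with edgeR 4.0.16 (filterByExpr, TMM, glmQLFit and glmQLFTest, 2-sided, genotype as the only term) in R 4.3.3, with Benjamini-Hochberg adjustment over the 20169 tested genes. The step was tested on simulated data. Each SE was obtained as the size of the log2 fold change over the root of its F statistic. WRKY genes, structural groups, role lists and other gene lists were chosen from general knowledge with earlier results of these data known, and are described by counts and medians with no list test. Members at 0, the phosphate-linked members, members past 2-fold and the lowest adjusted p of each WRKY list were named by rule, with up to 4 genes by adjusted p in the lists of partners, targets and touch genes. The other members were named afterwards to complete each group. Transcripts were compared with BLAST 2.17.0. Alternatives were DESeq2 1.42.0, limma 3.58.1 on log2 FPKM, other scalings and filters, glmTreat, a replicate block and each library left out. Figures used matplotlib 3.10.9.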

Additional observations from a re-analysis of the deposited data

How the results depend on the processing

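Of the 34 calls on WRKY genes 21 held under every alternative that gave them a value, leaving aside the test against 2-fold. Of these 6 were higher and 15 lower, among them WRKY75, WRKY6, WRKY18 and all 4 tested group III genes. WRKY8, also among the 21, was filtered out when genes needed 1 FPKM or more in 3 libraries. None of the 34 calls reversed direction in any alternative run. Some members that did not pass changed sign, such as WRKY48 (-0.10 to 0.29) and WRKY44 (-0.16 to 0.11). The other 13 calls were each lost when some library was left out, and DESeq2 lost the same 13. With DESeq2 6 members rose and 15 fell, and 4 of the defence list rose and 5 fell. Without 1 library at a time 8 to 10 members rose and 18 to 21 fell, 6 to 8 of the defence list rose and 5 to 7 fell, 2 to 3 phosphate-linked members passed, and at 2-fold 1 was higher and 7 to 8 lower. By limma on log2(FPKM + 1), with or without the filter, 0 members were at least 2-fold higher, at any p, and 2 lower (WRKY75 and WRKY18), since the added 1 shrinks the change of low genes: WRKY46 stood at 0.97 (adjusted p = 5.51e-05 with the filter). With 0.1 added instead, 1 was higher and 7 lower. The glmTreat test against 2-fold itself left WRKY46 higher and 2 lower, WRKY75 and WRKY18, with 147 genes higher and 596 lower in all. The defence list without group III had 5 higher. With library totals in place of TMM 13 members rose and 21 fell, and WRKY1 did not pass. With the replicate block 12 rose and 22 fell, 1 and 7 of them at 2-fold, and no WRKY call changed. Over all tested genes same-numbered libraries did not deviate together (r of -0.0212, 0.00965 and -0.00777). These deviations include the counting error of low genes, so they cannot exclude that the numbers pair the libraries. Low counts limit WRKY46, WRKY8 and WRKY56, and 17 members were too low to test.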
